A study of Mus musculus with 313 samples.

Results

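Gata3, Bcl11b, Tbx21 and Eomes are 4 of the 100 genes that were measured by quantitative RT-PCR in single precursor cells of the mouse fetal liver at embryonic day 15. They were taken by name, as transcription factors that mark or drive particular lymphoid fates. Each cell was sorted without lineage markers and with the interleukin-7 receptor α chain and the integrin α4β7. Those cells were split into α4β7+ lymphoid precursors (aLP; neither PLZF nor CXCR5), innate lymphoid cell precursors (ILCP; PLZF present) and lymphoid tissue inducer precursors (LTiP; CXCR5 without PLZF). Zbtb16 encodes PLZF, and CXCR5 is a chemokine receptor. Livers were pooled before sorting, the labels give NA for an activation agent, and they name no genotype or strain. The question set by the design is how these genes are distributed along the path from the lymphoid precursor to the innate and the tissue inducer lineages.

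Innate lymphoid cells (ILCs) are lymphocytes without rearranged antigen receptors, and their groups parallel the helper and cytotoxic lineages of T cells. GATA3 is a zinc finger factor needed for group 2 ILCs (ILC2s) and for the early steps of other ILC and T cells. BCL11B is a zinc finger factor that commits T cell progenitors and is needed for ILC2 identity. T-bet, the protein of Tbx21, and its T-box relative EOMES direct group 1 ILCs and natural killer (NK) cells, with EOMES regarded as the mark that separates NK cells from most other group 1 ILCs.

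The table used here held 313 cells, and 312 entered the comparisons. These were 54 aLP cells of sort 2, 92 aLP cells of sort 3, 62 ILCP cells of sort 2, 90 ILCP cells of sort 3 and 14 LTiP cells of sort 3. The number 2 or 3 in each cell's name was taken as the sort, since the series text speaks of 2 sorting experiments, although no label defines it. A cell group of 1 sort is called a pool. Detection of a gene meant a Ct below 24, the Ct being the PCR cycle where fluorescence passes its threshold. Of the 96 assays for other genes, a mean of 32.1 and 28.1 were detected per aLP cell in sorts 2 and 3, 39.6 and 40.0 per ILCP cell, and 33.5 per LTiP cell. The mean Ct of the housekeeping gene Hprt was 16.9 and 17.6 in aLP, 16.2 and 16.3 in ILCP and 17.7 in LTiP cells. As sorted, 93.5% and 96.7% of ILCP cells held Zbtb16 transcript and 85.7% of LTiP cells held Cxcr5 transcript, but 20.4% of aLP cells of sort 2 and 50.0% of LTiP cells also held Zbtb16.

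The 250 bases upstream of the RefSeq start of each gene (GRCm38.p6) are printed because the 4 genes were detected in overlapping sets of ILCP cells and because these stretches show how unlike their proximal promoters are. They lie at chr2:9878601-9878850 on the minus strand for Gata3, chr12:108003415-108003664 on the minus strand for Bcl11b, chr11:97115332-97115581 on the minus strand for Tbx21 and chr9:118477939-118478188 on the plus strand for Eomes. All are written 5′ to 3′ in the direction of transcription, and capitals mark matches to the GC box GGGCGG or the CCAAT box CCAAT on either strand.
Gata3: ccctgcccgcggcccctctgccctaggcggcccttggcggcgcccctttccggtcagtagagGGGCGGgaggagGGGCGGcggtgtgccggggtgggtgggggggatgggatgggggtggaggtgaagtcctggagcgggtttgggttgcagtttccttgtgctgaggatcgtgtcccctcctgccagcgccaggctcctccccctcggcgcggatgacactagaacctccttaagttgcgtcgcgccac
Bcl11b: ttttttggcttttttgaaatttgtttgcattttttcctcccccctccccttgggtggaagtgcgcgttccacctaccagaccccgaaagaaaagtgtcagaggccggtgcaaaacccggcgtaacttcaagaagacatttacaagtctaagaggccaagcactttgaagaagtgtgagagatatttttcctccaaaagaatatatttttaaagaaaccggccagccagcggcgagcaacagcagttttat
Tbx21: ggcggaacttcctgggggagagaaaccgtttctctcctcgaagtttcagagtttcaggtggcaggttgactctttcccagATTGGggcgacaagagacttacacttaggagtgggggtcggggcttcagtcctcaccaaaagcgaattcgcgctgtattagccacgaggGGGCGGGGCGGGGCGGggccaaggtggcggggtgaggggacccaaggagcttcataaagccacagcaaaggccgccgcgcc
Eomes: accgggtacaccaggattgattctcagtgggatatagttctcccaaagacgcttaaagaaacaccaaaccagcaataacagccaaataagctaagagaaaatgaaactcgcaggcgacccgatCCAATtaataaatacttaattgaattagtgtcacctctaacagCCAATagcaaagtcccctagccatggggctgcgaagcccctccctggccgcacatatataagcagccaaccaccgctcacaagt
G and C made up 70% of the Gata3 stretch, 60.8% of that of Tbx21, 46.4% of that of Eomes and 44.8% of that of Bcl11b, against a median of 52.4% over 32851 promoter stretches of the same length. GC boxes were found in 32.7% of all stretches. Gata3 held 2 of them, from base -188 to -183 and from base -176 to -171 counted from the start, and Tbx21 held 3 that overlap, from -81 to -66. CCAAT boxes were found in 33.8% of all stretches, with 1 in Tbx21 on the opposite strand from -170 to -166 and 2 in Eomes from -127 to -123 and from -84 to -80. The letters AGATAA of a GATA site (9.99% of all stretches), TCACACC of a T-box core site (3.33%) and TATAAA of a TATA box (12.4%) were in none of the 4 stretches on either strand. No GC box overlapped a CCAAT box. For Gata3 and Bcl11b the start used is not the outermost annotated one, and such matches describe the letters of these windows only.

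Gata3, Bcl11b and Tbx21 were each detected in a minority of ILCP cells in both sorts, Eomes in few of them, and all 4 were rare or not detected in aLP cells. Gata3 was detected in 23 of 62 ILCP cells of sort 2 (37.1%; exact 95% interval 25.2% to 50.3%) and in 27 of 90 of sort 3 (30%; 20.8% to 40.6%). Among aLP cells it was found in 6 of 54 of sort 2 (11.1%; 4.19% to 22.6%) and in 0 of 92 of sort 3. The limit given for a count of 0 is the share that 3 cells would make, here 3.3%. The aLP pools were both below the ILCP pools, although the aLP cells of sort 2 did hold Gata3 transcript.

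Bcl11b was found in ILCP cells at shares like those of Gata3 but in no aLP cell. It was detected in 22 of 62 ILCP cells of sort 2 (35.5%; 23.7% to 48.7%) and in 29 of 90 of sort 3 (32.2%; 22.8% to 42.9%). No aLP cell had a Ct below 24 for Bcl11b (0 of 54 and 0 of 92, with limits of 5.56% and 3.3%). The intervals, here and below, are Clopper-Pearson intervals that cover counting error only. In a single cell a missing Ct shows that no transcript was caught, not that the gene is silent.

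Tbx21, the T-bet gene, was detected in 20 of 62 ILCP cells of sort 2 (32.3%; 20.9% to 45.3%) and in 14 of 90 of sort 3 (15.6%; 8.77% to 24.7%). Among aLP cells it was found in 0 of 54 of sort 2 (limit 5.56%) and in 7 of 92 of sort 3 (7.61%; 3.114% to 15.1%). The groups were far apart in sort 2, while the intervals of sort 3 overlapped. Eomes was detected in 5 of 62 ILCP cells of sort 2 (8.06%; 2.67% to 17.8%) and in 4 of 90 of sort 3 (4.44%; 1.22% to 10.99%), and in no aLP cell (0 of 54 and 0 of 92, with the same limits of 5.56% and 3.3%). The ILCP and aLP intervals of Eomes overlapped in both sorts.

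**Figure D1:**
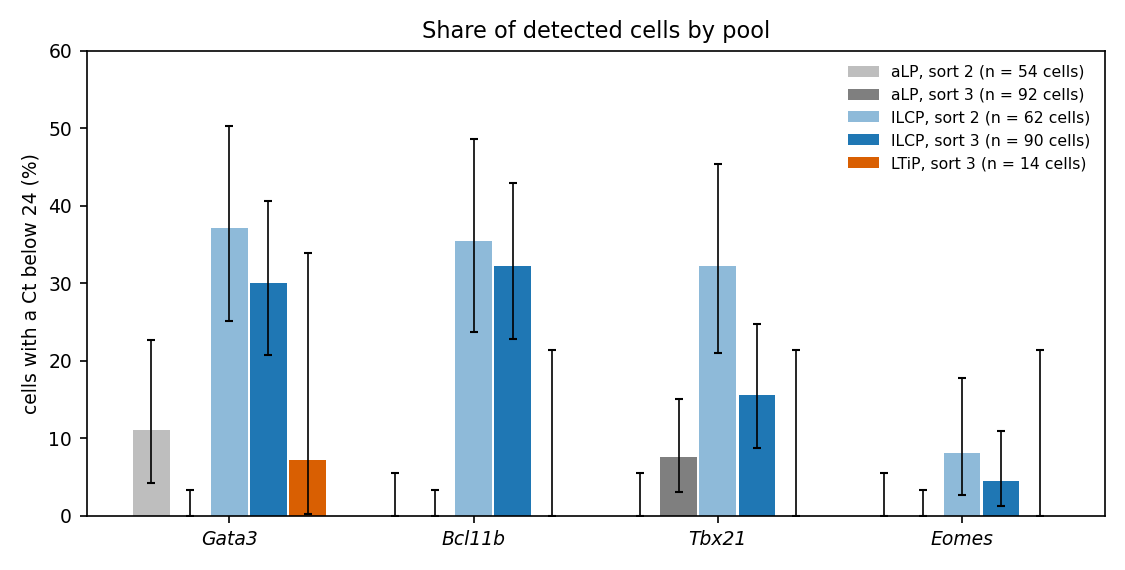
Percentage of cells with a Ct below 24 for each gene (vertical axis, %) in the 5 pools. Bars are shares, whiskers are exact 95% intervals or, at a share of 0, the upper limit that 3 cells would give; the ILCP bars of Gata3 and Bcl11b stand between 30% and 37.1%, and Bcl11b and Eomes have no bar in aLP or LTiP cells.

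Within ILCP cells the order of the shares in sort 2 was Gata3 (37.1%), Bcl11b (35.5%), Tbx21 (32.3%) and Eomes (8.06%), and the intervals of the first 3 overlapped widely, while that of Eomes lay below them. In sort 3 it was Bcl11b (32.2%), Gata3 (30%), Tbx21 (15.6%) and Eomes (4.44%), and each neighbouring pair had overlapping intervals. The assays may differ in sensitivity, so this order is one of detection and not of transcript amount.

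The shares in both ILCP pools were above those in both aLP pools for 4 of the 4 genes, and the same was true of 51.6% of all 91 assays that passed the filter for low detection. Bcl11b and Eomes passed that filter through ILCP pools only, so such counts over the 4 genes, and the direction of the difference for these genes, lend no support. The exact intervals of ILCP and aLP did not overlap for 3 genes in sort 2 (Gata3, Bcl11b and Tbx21), against 20% of all 100 assays. In sort 3 they did not overlap for 2 genes (Gata3 and Bcl11b), against 36% of all assays. Eomes was in neither count. The mean number of other assays detected was higher in ILCP cells, as given above, so the shares were also counted in the cells of every pool with 30 to 45 of the other assays detected. Gata3 was then found in 20 of 51 (39.2%) and 19 of 74 (25.7%) ILCP cells of sorts 2 and 3, against 6 of 39 and 0 of 37 aLP cells. Bcl11b was detected in 18 of 51 (35.3%) and 23 of 74 (31.1%) such ILCP cells and in none of the aLP cells. For Tbx21 these numbers were 14 of 51 (27.5%) and 10 of 74 (13.5%) for ILCP, against 0 of 39 and 1 of 37 (2.70%) for aLP cells. Eomes was found in 4 of 51 (7.84%) and 2 of 74 (2.70%) such ILCP cells and in none of the aLP cells. This range limits the number of other genes but does not make it equal between groups, and the part of that number in the shares was not tested further. The aLP cells of sort 2 were all numbered 97 or higher in their names, and of the 10 ILCP cells of that sort with such numbers, 3 had Gata3, 6 had Bcl11b, 4 had Tbx21 and 1 had Eomes.

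Where a gene was detected, the Ct gives its amount, with a lower Ct for more cDNA. Gata3 had a narrow range of Ct in every pool that held it. The lowest, median and highest Ct were 17.8, 19.6 and 20.8 in ILCP cells of sort 2, and 18.4, 19.7 and 20.96 in those of sort 3. The 6 Gata3-positive aLP cells lay within the same range, at 18.8, 19.4 and 19.7, and the single positive LTiP cell had a Ct of 20.03. Of all Ct values of the 4 genes, 1 was at or above the limit of 24, a Gata3 value of 26.8 in an ILCP cell of sort 3. Below the limit, Bcl11b came nearest to it, and a limit of 22 would lower its share in ILCP cells of sort 3 from 32.2% to 26.7%.

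Bcl11b spread more widely over the ILCP cells that held it. Its lowest, median and highest Ct were 17.1, 20.2 and 22.6 in sort 2 and 17.5, 20.9 and 23.9 in sort 3. The median Ct was 0.67 cycles higher in sort 3, which ranked 16 among 68 assays by this shift, whose median over assays was 0.12 cycles. Eomes was measured at Ct values of 17.9, 19.6, 20.4, 20.8 and 20.998 in the 5 cells of sort 2 and of 18.7, 19.5, 20.04 and 20.7 in the 4 cells of sort 3. The Eomes values of the sorts overlapped throughout.

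Tbx21 differed in amount between the sorts. In ILCP cells of sort 2 its lowest, median and highest Ct were 14.999, 17.3 and 19.8, and in those of sort 3 they were 15.7, 19.7 and 21.4. The median shift of 2.33 cycles toward less transcript in sort 3 ranked 1 of 68 assays, whereas Gata3 shifted by 0.067 cycles and ranked 40. The 7 aLP cells of sort 3 with Tbx21 had Ct values from 18.8 to 19.7, with a median of 19.4. In sort 2, 14 of 20 Tbx21-positive ILCP cells had a lower Ct than any of those 7 aLP cells. No aLP cell of sort 2 had Tbx21, so this sets raw Ct values of 1 sort against those of the other. Within sort 3 a Ct lower than in any of the 7 aLP cells was seen in 3 of 14 such ILCP cells. Those 3 cells stood apart from the other 11, with a gap of 3.576 cycles between a Ct of 16.01 and a Ct of 19.6, and the widest such gap in sort 2 was 0.67 cycles. What sets the sorts apart in Tbx21 was not tested.

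**Figure D2:**
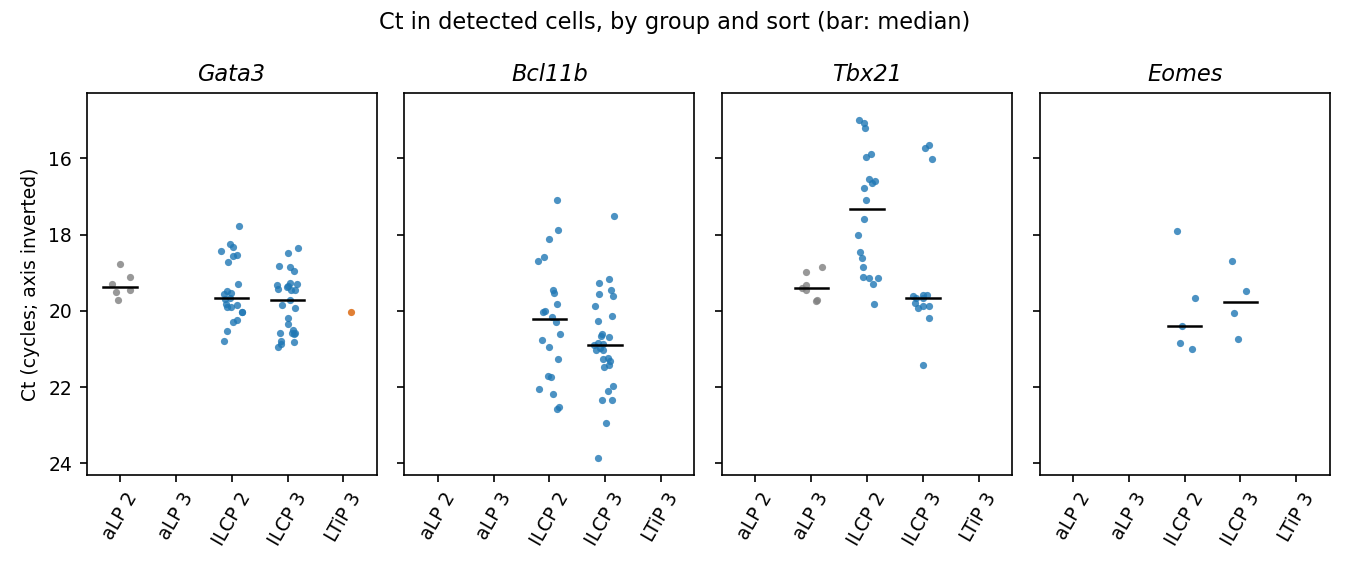
Ct of each gene (vertical axis, cycles, inverted so that more transcript is higher) in every cell where it was detected, by group and sort on the horizontal axis; each point is 1 cell and the black bar is the median. Gata3 has like medians of 19.4 to 19.7 in aLP and ILCP cells, while Tbx21 is higher in ILCP cells of sort 2 (median 17.3) than in those of sort 3 (median 19.7), where 3 cells lie apart.

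To compare the groups over pools, the level was set at 24 minus the Ct, or 0 in a cell without detection, and averaged over the cells of a pool. Its difference between groups, in cycles, joins the share of cells with the amount in them. The mean level of Gata3 was 0.52 and 0 in aLP cells and 1.69 and 1.26 in ILCP cells of sorts 2 and 3. The ILCP group was higher by 1.21 ± 0.33 cycles (SE, n = 2 pools per group), by 1.17 in sort 2 and 1.26 in sort 3, which did not pass limma's test (adjusted p = 0.115, unadjusted p = 0.0225). The size of this difference was close to the same in the sorts.

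Bcl11b had a mean level of 0 in both aLP pools and of 1.32 and 1.01 in the ILCP pools. The ILCP group was higher by 1.17 ± 0.25 cycles (SE, n = 2), and limma's adjusted p was 0.0701 (unadjusted p = 0.0100). Over the alternatives limma's adjusted p ran from 0.0154 with shares in place of levels to 0.225 without aLP of sort 3, and it was 0.162 with a limit of 22, 0.0472 with a limit of 26 and 0.147 in cells with 30 to 45 other assays. Bcl11b entered the test through ILCP pools only and had no spread in aLP, so the p-values under 0.05 are no support for a difference.

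Tbx21 had a mean level of 0 and 0.35 in the aLP pools and of 2.1 and 0.77 in the ILCP pools. The ILCP group was higher by 1.27 ± 0.55 cycles (SE, n = 2), by 2.1 in sort 2 but by 0.42 in sort 3, and limma's adjusted p was 0.208. Eomes had a mean level of 0 in the aLP pools and of 0.33 and 0.19 in the ILCP pools, a difference of 0.26 ± 0.23 cycles (SE, n = 2) with a limma adjusted p of 0.495. The Tbx21 difference was mostly that of sort 2, and the Eomes difference was about as large as its standard error.

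None of the 4 genes passed the threshold. By unadjusted p in the same limma fit, Bcl11b ranked 13, Gata3 17, Tbx21 37 and Eomes 58 among the 91 assays. Over all 91 assays tested, limma called 5.49% higher in ILCP. The level was higher in ILCP in both sorts for 4 of the 4 genes and for 63.7% of all assays tested. The median difference was 1.19 cycles over the 4 genes and 0.54 over all 91 assays, of which 72 were above 0. Bcl11b and Eomes had a level of 0 in both aLP pools and could only differ upward, so the median over the 4 genes lends no support. Limma's p-values here measure the spread between 2 pools of each group, which may be technical. In pooled values, fewer cells with a transcript and less transcript per cell cannot be told apart, so the shares and the Ct values above are the more direct measures.

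**Figure D3:**
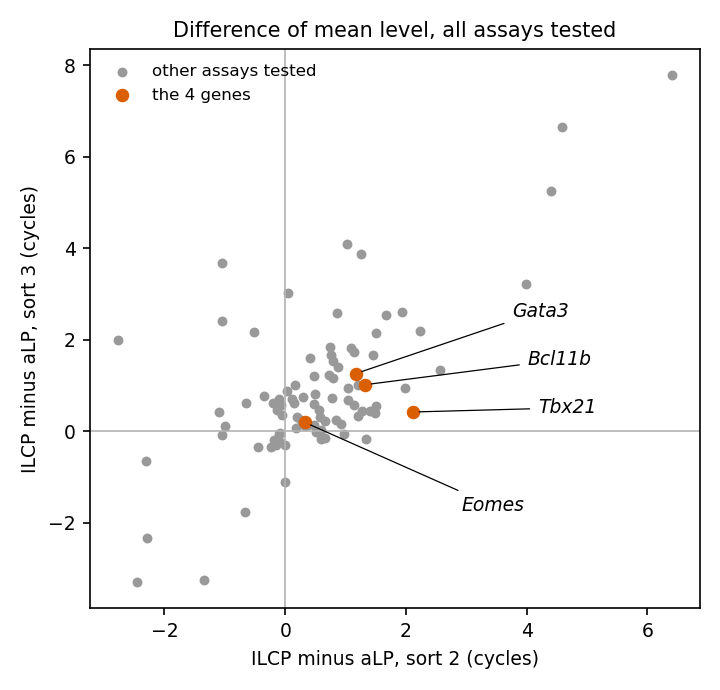
Difference of the mean level between ILCP and aLP cells in sort 2 (horizontal axis, cycles) and sort 3 (vertical axis, cycles) for all 91 assays tested, with the 4 genes in orange. Gata3 (1.17 and 1.26) and Bcl11b (1.32 and 1.01) lie near equal values, Tbx21 (2.1 and 0.42) lies to the right, and all 4 are within the range of the other assays.

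The LTiP cells were compared within sort 3, where their only pool lay, and therefore without a test. Of 14 such cells, 1 had Gata3 (7.14%; exact 95% interval 0.181% to 33.9%). Bcl11b, Tbx21 and Eomes were detected in 0 of 14 (limit 21.4%). Against ILCP cells of the same sort the LTiP share was lower by 22.9 percentage points for Gata3, 32.2 for Bcl11b, 15.6 for Tbx21 and 4.44 for Eomes. The exact intervals of ILCP and LTiP overlapped for all 4 genes, whereas ILCP was above LTiP without overlap for 13% of all 100 assays. LTiP was above aLP without overlap for 0 of the 4 genes and 19% of all assays. For Bcl11b the overlap was narrow, since the exact interval of 0 of 14 ends at 23.2% and that of ILCP begins at 22.8%, which is above the limit of 21.4%. The exact intervals thus did not separate LTiP from ILCP cells for any of the 4 genes. Overlap of intervals is not a test of a difference, and at 14 cells it does not show that a difference is absent. All LTiP cells were numbered 1 to 96 in their names. Among ILCP cells of sort 3 with such numbers, Gata3 was detected in 8 of 19 (42.1%), Bcl11b in 7 (36.8%), Tbx21 in 4 (21.1%) and Eomes in 0.

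Single ILCP cells differed in which of the 4 genes they held. In sort 2, 18 of 62 cells (29.03%; exact 95% interval 18.2% to 41.9%) had none of the 4, 22 (35.5%) had exactly 1 and 22 (35.5%; 23.7% to 48.7%) had 2 or more. In sort 3, 37 of 90 cells (41.1%; 30.8% to 51.98%) had none, 34 (37.8%) had exactly 1 and 19 (21.1%; 13.2% to 30.99%) had 2 or more. Of the 16 combinations that are possible, 12 were seen and 8 were seen in both sorts. No ILCP cell had all 4 genes, 4 and 2 cells had 3, and no aLP cell had more than 1. Among LTiP cells, 13 of 14 had none.

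The largest classes of positive ILCP cells were those with Gata3, Bcl11b or both. Bcl11b was detected alone in 8 and 15 cells of sorts 2 and 3, Gata3 alone in 9 and 11, and both without Tbx21 or Eomes in 7 and 12. Tbx21 was detected alone in 5 and 8 cells and with Eomes alone in 4 and 2. The classes with Tbx21 and the zinc finger factors were small. Bcl11b with Tbx21 was seen in 4 cells of sort 2 and 0 of sort 3, Gata3 with Tbx21 in 3 and 2, and all 3 of Gata3, Bcl11b and Tbx21 in 3 and 1. The remaining cells were 1 with Gata3, Tbx21 and Eomes in sort 2, and 1 with Gata3 and Eomes and 1 with Bcl11b, Tbx21 and Eomes in sort 3. Eomes was never the only gene of the 4 in a cell.

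**Figure D4:**
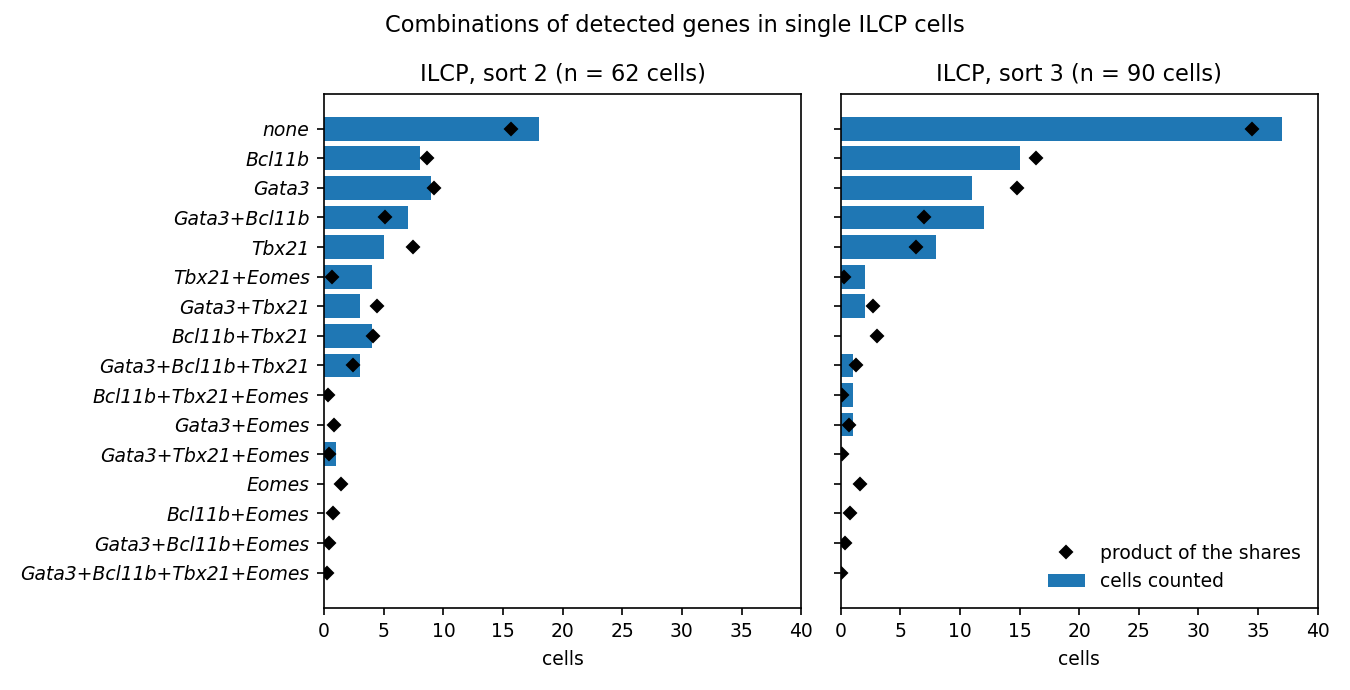
Number of ILCP cells (horizontal axis) with each of the 16 combinations of detected genes, in sort 2 (62 cells) and sort 3 (90 cells). Bars are cells counted and diamonds are the number that the product of the genes' shares in that pool gives; Tbx21 with Eomes (4 and 2 cells) and Gata3 with Bcl11b (7 and 12 cells) lie above their diamonds in both sorts.

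The pair seen together most often for its shares was Tbx21 and Eomes. Both were detected in 5 cells of sort 2 and 3 of sort 3, where the product of their shares gives 1.61 and 0.622 cells. The phi coefficient, a correlation of detected or not over the cells of 1 pool, was 0.43 in sort 2 (62 cells) and 0.35 in sort 3 (90 cells). It was 0.47 and 0.42 in the 51 and 74 cells with 30 to 45 other assays detected. Of the 9 Eomes-positive ILCP cells, 8 also had Tbx21, whereas 25% and 21.4% of Tbx21-positive cells had Eomes. The relation was thus of inclusion, with nearly every Eomes cell inside the larger set of Tbx21 cells. Cells of 1 pool share a sort and are not replicates, so this and the following phi values are descriptions.

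Gata3 and Bcl11b were detected together in 10 cells of sort 2 and 13 of sort 3, where the product of their shares gives 8.16 and 8.70. Their phi was 0.13 and 0.22. In the cells with 30 to 45 other assays detected, 7 and 10 held both genes, and phi was -0.0049 in sort 2 and 0.27 in sort 3. The value thus fell in sort 2 and rose in sort 3, and the part of that number in it was not tested. Gata3 and Tbx21 occurred together in 7 and 3 cells (7.42 and 4.20 from the product; phi -0.030 and -0.080). Bcl11b and Tbx21 occurred together in 7 and 2 cells (7.10 and 4.51 from the product; phi -0.0070 and -0.16). The ILC2 factors and Tbx21 were therefore close to independent in sort 2 and seen together in fewer cells than the product gives in sort 3. Bcl11b and Eomes occurred together in 0 and 1 cells, where the product gives 1.77 and 1.29.

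The number of other genes detected varied with the 4 genes. The mean number of other assays was 38.6 and 39.1 in ILCP cells of sorts 2 and 3 with none of the 4 genes, 38.05 and 40.2 in those with exactly 1, and 42 and 41.3 in those with 2 or more. By gene, it was 41.5 against 38.5 in sort 2 and 41.8 against 39.2 in sort 3 for cells with and without Gata3. For Bcl11b it was 40.3 against 39.2 and 39.8 against 40.0, a difference in opposite directions in the sorts. In cells with and without Tbx21 it was 40.75 against 39.1 and 40.7 against 39.8. For Eomes it was 41.4 against 39.5 and 44.2 against 39.8, the widest gap of the 4 genes in sort 3. The part of this number in the combinations was limited as described above and not tested further.

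Ncr1, the gene of the activating receptor NKp46 of NK cells and some ILCs, was detected in 4 ILCP cells, 3 of sort 2 and 1 of sort 3. All 4 also had both Tbx21 and Eomes. It was detected in no aLP or LTiP cell, and this gene was singled out after its values had been seen. Among the 8 cells with Tbx21 and Eomes, the median Tbx21 Ct was 17.6 in the 5 cells of sort 2, against 16.8 in the 15 cells with Tbx21 alone of the pair. In sort 3 it was 15.7 in 3 cells against 19.8 in 11. The sorts thus went in opposite directions, and of the 3 cells of sort 3 that stood apart by their high Tbx21, 2 had Eomes.

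Over the ILCP cells of each sort, the assays most like each gene were taken by the smaller phi of the sorts, among 56 assays that were detected in 10 to 90% of both ILCP pools (57 for Eomes, since Tbx21 could count). Bcl11b had the highest values. Rxrg, a retinoid X receptor gene, was detected in 18 of 22 and 19 of 29 Bcl11b-positive cells and in 6 of 40 and 13 of 61 others (phi 0.66 and 0.43). Igf2, an imprinted growth factor gene, was detected in 11 of 22 and 17 of 29 Bcl11b-positive cells and in 2 of 40 and 8 of 61 others (phi 0.53 and 0.47). Lat, the adaptor of T cell receptor signalling, followed with a phi of 0.33 and 0.35. Tsc22d3, a glucocorticoid-induced gene, was among the lowest (-0.27 and -0.28).

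For Gata3 the most like assays were Fbxo27, an F-box gene (phi 0.31 and 0.33), Rora (0.30 and 0.34) and Ets1 (0.26 and 0.20). Rora, a nuclear receptor gene needed for ILC2s, was detected in 21 of 23 and 27 of 27 Gata3-positive cells and in 25 of 39 and 44 of 63 others. Irf8, a factor of myeloid and B cells (-0.29 and -0.26), and Nfil3, an early ILC factor (-0.31 and -0.24), were lowest. Gata3-positive cells thus held Rora almost without exception, but so did most cells without Gata3.

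For Tbx21 the most like assays were Ltb, the gene of lymphotoxin β (phi 0.38 and 0.28), Tnfrsf9, the gene of the costimulatory receptor 4-1BB (0.53 and 0.21), and Irf8 (0.21 and 0.28). Ltb was detected in 12 of 20 and 5 of 14 Tbx21-positive cells and in 9 of 42 and 7 of 76 others. Tnfrsf9 was detected in 18 of 20 and 9 of 14 Tbx21-positive cells and in 14 of 42 and 27 of 76 others. Sox4, a transcription factor gene of early lymphoid cells (-0.25 and -0.21), and Il2ra, the gene of the interleukin-2 receptor α chain (-0.16 and -0.14), were lowest. Irf8 was thus among the highest for Tbx21 and among the lowest for Gata3. For Eomes, with 5 and 4 positive cells, Tbx21 itself was highest, followed by Ltb (phi 0.29 and 0.39) and Tnfrsf11a, the gene of the receptor RANK (0.39 and 0.29), while Tsc22d3 (-0.22 and -0.18) was among the lowest.

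**Figure D5:**
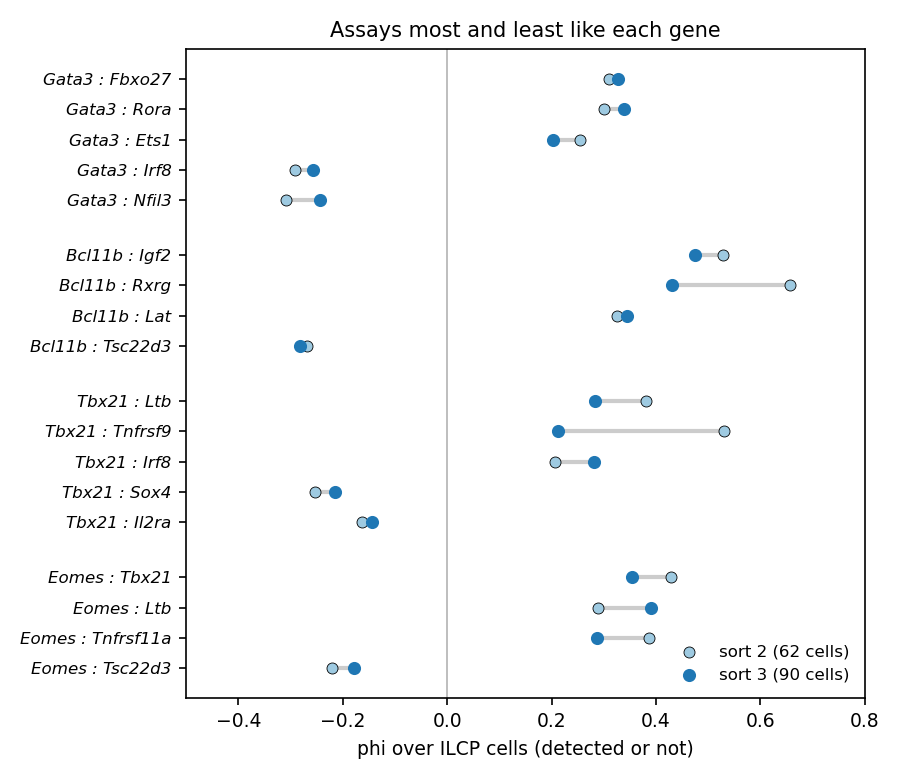
Phi between each gene and the assays most and least like it (horizontal axis) over ILCP cells of sort 2 (light, 62 cells) and sort 3 (dark, 90 cells), where 0 means no relation. Bcl11b has the highest values, with Rxrg at 0.66 and 0.43 and Igf2 at 0.53 and 0.47, and the sorts differ most for Tbx21 with Tnfrsf9 (0.53 and 0.21).

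Other genes of the same pathways were taken as lists that leave out the 4 genes. The lists were chosen with earlier results of these data known, so their counts and medians are no separate support. Of 8 ILC2 genes, all tested, 7 had a higher level in ILCP than in aLP cells in both sorts, 0 a lower one, and 3 passed limma's test upward, with a median difference of 1.24 cycles against 0.54 over all assays. Over all 91 assays, 63.7% were higher in both sorts and 5.49% passed upward, and the counts of this and the following lists stand beside those shares. The 3 included Rora, higher by 4.83 ± 0.31 cycles (SE, n = 2; limma adjusted p = 0.00615), and Ets1, a lymphoid transcription factor gene, higher by 3.60 ± 0.38 cycles (SE, n = 2; limma adjusted p = 0.0138). Of 8 ILC1 and NK genes on the panel, 7 were tested, 6 had a higher and 1 a lower level in both sorts, and 0 passed. Among these, Runx3, a partner of T-bet in cytotoxic lymphocytes, differed by 1.72 ± 0.53 cycles (SE, n = 2; limma adjusted p = 0.130) and Cd27 by 1.53 ± 0.85 (SE, n = 2; limma adjusted p = 0.310).

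Of 9 group 3 ILC and lymphoid tissue inducer genes, 7 were tested, 5 were higher and 2 lower in both sorts and 0 passed, with a median difference of 0.54 cycles, that of all assays. Of 5 early ILC factors, 4 were higher and 1 lower in both sorts and 2 passed upward. These were Zbtb16, whose protein defined the gate and which is no finding here, and Tcf7, higher by 5.62 ± 0.58 cycles (SE, n = 2; limma adjusted p = 0.0138). Of 6 T cell genes, 5 were tested, 3 were higher and 2 lower in both sorts and 0 passed. Lat, higher by 1.56 ± 0.34 cycles (SE, n = 2), had a limma adjusted p of 0.0702, close to that of Bcl11b.

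Within ILCP cells, those with Bcl11b held more ILC2 genes. A mean of 5.14 ± 1.42 of the 8 were detected in Bcl11b-positive cells of sort 2 (SD over 22 cells) and 2.03 ± 1.48 in the other 40 cells. In sort 3 the means were 3.72 ± 1.58 over 29 cells and 2.25 ± 1.41 over 61. Gata3-positive cells had 3.78 against 2.74 in sort 2 and 3.444 against 2.41 in sort 3. For Tbx21 the sorts differed in direction, with 3.55 against 2.93 and 2.57 against 2.75. The gap was widest for Bcl11b in both sorts. Among the 8 genes are Rxrg, named above as like Bcl11b, and Rora and Ets1, named as like Gata3. The list was also chosen with earlier results of these data known, so these means are no separate support for a relation.

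Eomes-positive cells held more genes of more than 1 list. Of the ILC1 and NK genes they had a mean of 6.20 of 8 in 5 cells against 4.16 in 57 in sort 2, and 5.00 in 4 cells against 3.95 in 86 in sort 3. Of the 9 group 3 genes, Ltb among them, they had 2.80 against 1.86 and 3.3 against 1.53, and their number of other assays was also higher, as given above. Tbx21-positive cells had 4.85 against 4.07 and 4.21 against 3.96 of the ILC1 and NK genes, and 2.40 against 1.71 and 2.43 against 1.46 of the group 3 genes. Gata3-positive cells also had more of the ILC1 and NK genes, with 4.52 against 4.21 and 4.37 against 3.84, a wider gap than that of Tbx21 in sort 3. A higher mean on the ILC1 and NK list was therefore not particular to the T-box genes. Bcl11b-positive cells had 4.05 against 4.475 and 4.10 against 3.95 of these genes. The number of other assays was also higher in Gata3-positive and in Tbx21-positive cells, and its part in these means was not tested. Of the group 3 genes, Gata3-positive cells had 1.91 against 1.95 and 1.56 against 1.63. Bcl11b-positive cells had 1.36 against 2.25 and 1.76 against 1.54. On that list only the T-box genes thus had the higher mean in both sorts. However, Ltb on that list was named above as like both of them, and 8 of the 9 Eomes-positive cells also had Tbx21. The group 3 means are therefore no separate support for a relation. The differences between these means were not tested.

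Markers of other cells moved with the groups. Of 4 T cell markers 3 were on the panel, and their summed mean level was 1.35 and 0.93 in aLP, 3.1 and 2.41 in ILCP and 6.31 in LTiP cells. The difference between ILCP and aLP in sorts 2 and 3 was mostly that of Lat (1.46 and 1.66 cycles). It was 0.33 and 0.11 for Cd4 and went the other way for Zbtb7b (-0.0082 and -0.29). Cd4 (42.9% of LTiP cells) is also on the list of group 3 and lymphoid tissue inducer genes. Of 3 megakaryocyte and erythroid markers only Itga2b was on the panel, at 0.11 and 0.060 in aLP, 1.25 and 1.79 in ILCP and 0 in LTiP cells. Of 5 myeloid and dendritic markers 2 were on the panel, and their summed level was 5.32 and 7.04 in aLP, 2.21 and 1.95 in ILCP and 3.47 in LTiP cells. Of 5 B cell markers 3 were on the panel. Their sum was 0.11 to 0.18 in ILCP, 0.57 to 0.62 in aLP and 0.58 in LTiP cells. Most of the difference between ILCP and aLP in sorts 2 and 3 was that of Bcl11a (-0.45 and -0.35 cycles). Ebf1 and Pax5 were detected in none of the ILCP cells (limits 4.84% and 3.33%). Each was also found in no aLP cell of sort 2 and in 1.09% of those of sort 3, so they did not separate the groups. The part of such cells in the values of the 4 genes was not tested.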

How the data were processed

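Each value is a raw Ct that the authors deposited without normalization, per the file headers; an assay without a Ct in a cell is marked missing, by a rule not given in the sources used here. Per the labels' protocols, cDNA was preamplified for 22 cycles and run on a Biomark HD with TaqMan or Solaris assays, while a label field names SYBR Green.

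The members and gene lists were chosen with earlier results of these data known. Cells needed 5 assays below a Ct of 24 and at least 1 of 4 housekeeping assays (Tbp, Actb, Gapdh and Hprt), which left out 1 aLP cell of sort 2. The 91 of 100 assays that reached 5% detection in any aLP or ILCP pool were tested. Pool means of 24 minus the Ct (0 without detection) were fitted with limma 3.58.1 in R 4.3.3 (lmFit and eBayes), with group as the only term and Benjamini-Hochberg adjustment over all 91, and checked on simulated data. Cells were not replicates. The 4 genes were always named; lists gave up to 2 examples of largest size, and each gene the 3 assays highest and the 2 lowest in phi over ILCP cells, among assays detected in 10 to 90% of both ILCP pools; values of 1 assay are not reported here. Alternatives varied the detection limit, pool value, scaling, filters, cell numbers, sort as a block and the pools included. Symbols matched a RefSeq table for 98 of 100 assays and for 4 of the 4 genes, and promoter sequences are from RefSeq (GRCm38.p6). Shares, intervals and figures used Python 3.11.15, pandas 2.3.3, scipy 1.17.1 and matplotlib 3.10.9.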

Additional observations from a re-analysis of the deposited data

How the results depend on the processing

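The differences between ILCP and aLP stayed positive for Gata3 and Tbx21 in all 16 alternatives run. For Bcl11b and Eomes, at 0 in both aLP pools, they could not turn negative, and Eomes was too rare for the 20% assay filter. Their size in cycles depended on the detection limit. From a limit of 22 to any Ct it ran from 0.65 to 6.05 for Gata3, 0.52 to 6.92 for Bcl11b, 0.87 to 4.68 for Tbx21 and 0.13 to 1.32 for Eomes. Limma's adjusted p ranged from 0.0519 to 0.325 for Gata3, from 0.0154 to 0.225 for Bcl11b, from 0.127 to 0.352 for Tbx21 and from 0.208 to 0.839 for Eomes. The number of genes called among the 4 moved from 0 to 1, always Bcl11b, with a detection limit of 26, a limit of 28, any Ct, the share of detected cells, or scaling to Actb, Gapdh and Hprt. Over all assays limma called 6, and 12 with a limit of 26, 11 with a limit of 28, 16 with any Ct, 13 with the share and 11 with the 20% assay filter. With the sort as a replicate block it called 2 assays and 0 of the 4 genes, with an adjusted p of 0.172 for Bcl11b and 0.159 for Gata3. Same-numbered aLP and ILCP pools had a correlation of -0.047 over 91 assays between their deviations from the group means, which with 2 pools per group does not settle whether the number pairs them. Leaving out 1 pool gave 0 to 20 called assays, with 20 without aLP of sort 2 and 0 without either ILCP pool, and the lone pool was then assumed to vary like the other group. Among ILCP cells of sort 3 numbered 1 to 96, Gata3 was detected in 42.1% and Eomes in 0%. The shares of ILCP cells with none of the 4 genes (35.1% as the mean of the sorts) and with 2 or more (28.3%) ran from 32.5% to 38.4% and from 25.3% to 29.9% in the 5 alternatives that kept both sorts. Depth per cell, 14 LTiP cells and 2 pools per group limit these results.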

Other observations

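Cell numbers may mark separate plates or chips, although no label says so, and the shares in ILCP cells varied between number ranges. In sort 3, Bcl11b was detected in 7 of 19 cells numbered 1 to 96 (36.8%), 14 of 32 with the next 96 numbers (43.8%) and 8 of 39 with the last 96 (20.5%). Gata3 was detected in 42.1%, 28.1% and 25.6% of the same ranges and Tbx21 in 21.1%, 15.6% and 12.8%. In sort 2, Bcl11b was detected in 16 of 52 ILCP cells numbered 1 to 96 (30.8%) and in 6 of 10 with the next 96 numbers (60.0%). Differences between these ranges were not tested.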
